A study of Homo sapiens with 6 samples.

Results

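The genes described here were the aldo-keto reductases AKR1C1, AKR1C2, AKR1C3 and AKR1C4 and the dehydrogenase HSD17B2, enzymes that reduce or oxidise steroid hormones. They were the 5 of 414 genes in the deposited table that carry these symbols. RNA-seq had been carried out on parental KLE cells, an established endometrial carcinoma line (labelled WT), and on LATS1/2-KO KLE cells, in 3 libraries per group; the labels name no treatment. The LATS1/2-KO cells had been made with CRISPR/Cas9 from the plasmid pX459, puromycin selection and limiting dilution, so they descend from single cells; the column names give LATS1 guide 1 and LATS2 guide 2. LATS1 and LATS2 are kinases of the Hippo pathway that restrain the coactivators YAP and TAZ. All cells were grown in DMEM with fetal bovine serum, and a difference between the clone and the parental population that is not due to the edit cannot be told apart from the edit.

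The comparison asked which genes differed between parental and LATS1/2-KO cells. The table holds only genes that the study had already called different between these groups. Every result on the 5 genes is therefore a description of that choice and not independent evidence. Whether that choice used all 6 libraries was not tested. Counts summed over the table were 4064052, 3252765 and 3008692 in parental replicates 1, 2 and 3. They were 1862422, 613161 and 1180727 in LATS1/2-KO libraries 5, 6 and 7, so values of library 6 are the least precise. These sums cover listed genes and are not the depth of the libraries. LATS1 and LATS2 themselves were not analysed here.

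Among the listed genes, parental replicate 1 stood apart from the other parental libraries. Of 323 genes with at least 50 counts in a parental library, 76 lay over 4-fold from the mean of parental replicates 2 and 3 in replicate 1 (71 higher and 5 lower), against 11 that differed over 4-fold between replicates 2 and 3. A list of genes called different between the groups can leave out genes on which replicates 2 and 3 disagree. This contrast may therefore be partly built in by the study's choice. Fold changes, bounds and ratio differences below are given with and without it. Nothing in the labels says that the libraries of a group came from separate cultures, so p-values measure the spread between these libraries, which may be technical. Of 10 epithelial and endometrial markers, the table holds KRT19 and MUC16, with 26496 to 32635 and 240 to 349 counts in the parental libraries. Like every gene of the table, both had been called different between the groups, so these counts describe the parental cells only. None of 8 stromal, 5 immune or 7 hepatocyte markers is in the table, so the line's identity could be checked only in part.

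AKR1C enzymes use NADPH to reduce ketone groups of steroids, prostaglandins and other carbonyl compounds. AKR1C1 turns progesterone into a less active metabolite, AKR1C2 inactivates dihydrotestosterone, and AKR1C3 forms testosterone, estradiol and prostaglandin F from weaker or other precursors, whereas AKR1C4 is mainly a liver enzyme of steroid and bile acid metabolism. HSD17B2 works in the oxidative direction, turning estradiol into estrone and testosterone into androstenedione, and in the endometrium it is known to be induced by progesterone. AKR1C genes are also known targets of the oxidative stress factor NRF2.

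The AKR1C genes are close copies that lie side by side on 10p, which bears on how reads are assigned to each. On GRCh38, AKR1C1 (ENSG00000187134.14_5) lies at chr10:4963253-4983283 on the plus strand and AKR1C2 (ENSG00000151632.17_6) at chr10:4987400-5018031 on the minus strand. AKR1C3 (ENSG00000196139.14_6) lies at chr10:5035354-5107686 and AKR1C4 (ENSG00000198610.11_6) at chr10:5195462-5218949, both on the plus strand. The pseudogene AKR1C5P, also in the table, lies between AKR1C3 and AKR1C4. HSD17B2 (ENSG00000086696.11_5) is on another chromosome, at chr16:82035004-82098534. In GENCODE 29 the coding sequence of each of the 4 AKR1C genes was 969 bases in 9 exons. AKR1C1 and AKR1C2 were identical at 98.0% of coding bases, with a longest shared run of 186 bases, AKR1C2 and AKR1C3 at 91.0%, and AKR1C4 at 87.8% to 88.5% with the others.

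The bases that separate the copies are shown in 60 bases of exon 8 (coding bases 865 to 924, GRCh38 transcript strand), the window inside 1 exon with the most differences among the 4 genes and so not typical of the whole sequence, in which capitals mark bases that differ from AKR1C2. AKR1C1 differed from AKR1C2 at 0 bases of this window, AKR1C3 at 11 and AKR1C4 at 15.
AKR1C1, chr10:4975869-4975928, plus strand: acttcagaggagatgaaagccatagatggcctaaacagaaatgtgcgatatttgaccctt
AKR1C2, chr10:4991836-4991895, minus strand: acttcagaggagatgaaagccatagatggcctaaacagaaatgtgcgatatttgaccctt
AKR1C3, chr10:5105613-5105672, plus strand: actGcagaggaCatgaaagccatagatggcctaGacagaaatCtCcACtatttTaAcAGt
AKR1C4, chr10:5216729-5216788, plus strand: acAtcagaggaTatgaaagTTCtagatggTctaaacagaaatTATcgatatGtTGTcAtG

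Over the whole coding sequence, windows of 150 bases, the read length, were shared exactly with another AKR1 transcript at 4.63% of positions for AKR1C1, 7.32% for AKR1C2 and 2.68% for AKR1C3. For AKR1C4 this was 0 of 820 windows. At 50 bases the shares were 54.3%, 57.1%, 23.0% and 17.6% in the same order. How the authors' counting treated reads that fit several copies is not given in the sources used here, so the split between AKR1C1 and AKR1C2 is the most uncertain.

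AKR1C1, AKR1C2 and AKR1C3 were 13.2-, 10.1- and 6.81-fold lower in LATS1/2-KO cells, or 8.44-, 6.65- and 5.97-fold without parental replicate 1. The size of these differences depends on the scale between libraries. Their log2 fold changes were -3.73, -3.33 and -2.77 on the main scale. They were -3.03, -2.64 and -2.09 with TMM, and -2.69, -2.29 and -1.72 with column sums, where edgeR called 0 of the 5 genes. For each of them every LATS1/2-KO library was below every parental library, as for 44.2% of the table. AKR1C3, which makes androgens, estrogens and prostaglandin F, was the single gene of the 5 called by edgeR with all 6 libraries (adjusted p under 0.05 and over 2-fold), where 3.38% of the table was called lower. AKR1C4 was counted only in parental cells, and HSD17B2 only in LATS1/2-KO cells, both at low counts. In bulk RNA, fewer cells with a transcript and less transcript per cell cannot be told apart.

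**Figure D1:**
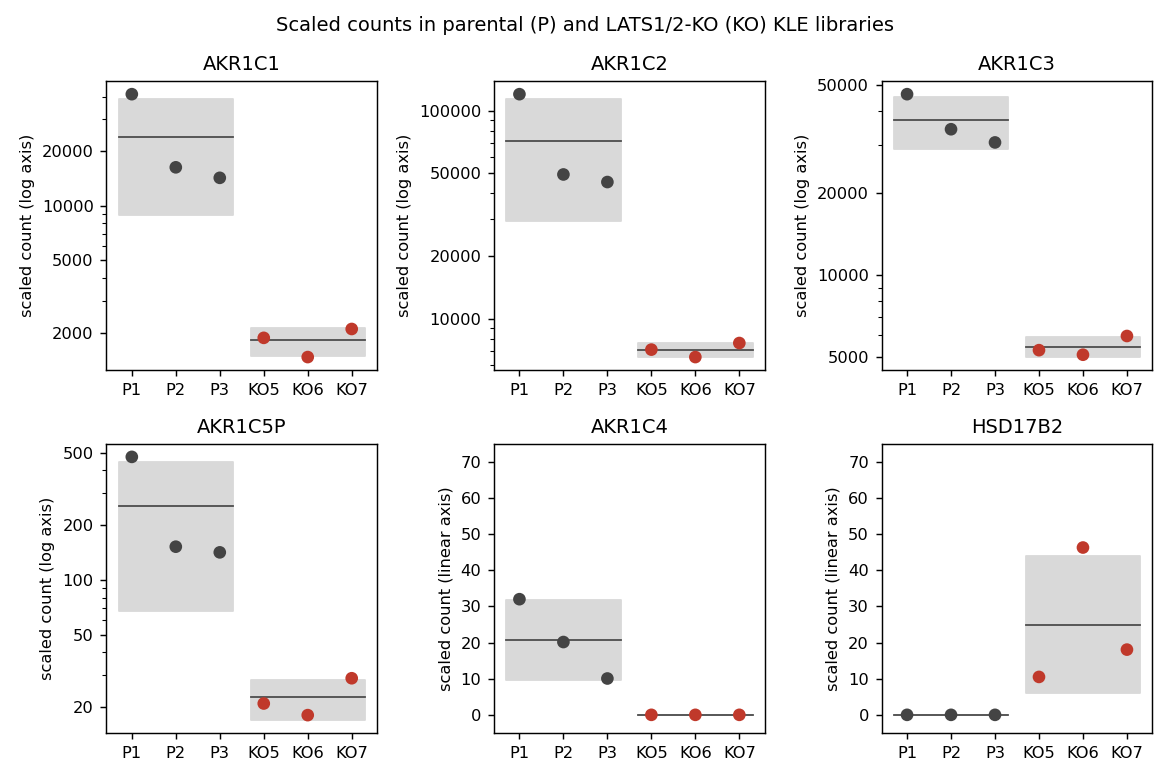
Scaled counts (y axis; logarithmic for AKR1C1, AKR1C2, AKR1C3 and AKR1C5P, linear for AKR1C4 and HSD17B2) in the 3 parental (P) and 3 LATS1/2-KO (KO) libraries; lines are group means and shading is 1 SD, n = 3. The 3 LATS1/2-KO libraries lie below all parental libraries in the 5 AKR1C panels and above them for HSD17B2, and parental replicate 1 is the highest library for each AKR1C gene.

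AKR1C2 was the most abundant of the family. Its counts were 176020, 61248 and 45145 in parental replicates 1, 2 and 3 and 9508, 3260 and 6369 in LATS1/2-KO libraries 5, 6 and 7. Counts were then divided by a library scale (scaled counts), for which the zero point between the groups was the middle of the empty gap that the study's 2-fold filter left in the table. On that scale AKR1C2 was 71515 ± 41881 (SD, n = 3) in parental cells and 7115 ± 551 in LATS1/2-KO cells. The parental spread came from replicate 1, which was 2.53-fold above the mean of the other parental libraries, whereas the LATS1/2-KO libraries were close to each other. The log2 fold change was -3.33 (SE 0.44) with all 6 libraries, with an adjusted p = 0.107 (edgeR quasi-likelihood test, Benjamini-Hochberg). Without parental replicate 1 it was -2.73 (SE 0.15), with an edgeR Benjamini-Hochberg adjusted p = 0.00534.

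AKR1C1, the progesterone-reducing enzyme, had 60707, 20256 and 14205 counts in parental replicates 1, 2 and 3 and 2496, 728 and 1740 in LATS1/2-KO libraries 5, 6 and 7. Parental replicate 1 was again the high library, at 41325 scaled counts beside 16318 and 14280 in the others, and the LATS1/2-KO libraries lay between 1465 and 2093. The fold change was the largest of the 3 abundant genes, with a log2 value of -3.73 (SE 0.50), or 13.2-fold lower, and an adjusted p = 0.107 (edgeR, Benjamini-Hochberg). Without parental replicate 1 the difference was 8.44-fold, a log2 fold change of -3.08 (SE 0.19), and the adjusted p from edgeR (Benjamini-Hochberg) was 0.00534.

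Over all 3 parental libraries AKR1C3 varied least of the 3 abundant genes, whereas between replicates 2 and 3 alone AKR1C2 did. It had 68021, 42709 and 30609 counts in parental replicates 1, 2 and 3 and 7069, 2532 and 4964 in LATS1/2-KO libraries 5, 6 and 7. Parental replicate 1 was 1.42-fold above the mean of replicates 2 and 3, less than for its neighbours. The log2 fold change was -2.77 (SE 0.20) with all 6 libraries and -2.58 (SE 0.15) without parental replicate 1, with adjusted p-values of 0.0193 and 0.00534 (edgeR, Benjamini-Hochberg). In LATS1/2-KO cells 14.7% of the parental mean remained, against 9.95% for AKR1C2 and 7.55% for AKR1C1. Against parental replicates 2 and 3 alone these shares were 16.7%, 15.0% and 11.8%.

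Adjusted p-values were corrected for 20000 genes. With all 6 libraries edgeR called 1 of the 5 genes lower, beside 3.38% of the table, and 0 of the 5 higher, beside 4.35%. Without parental replicate 1, 3 of the 5 were called lower, where 13.0% of the table was called lower and 11.1% higher. Leaving out any of the other 5 libraries left 0 genes of the whole table called by edgeR, with 276 to 290 genes at an unadjusted p under 0.05, so AKR1C3 also lost its call there. DESeq2 on the same scale called 3 of the 5 genes lower and HSD17B2 higher, but it called 30.7% of the table lower and 22.5% higher. Ranked by p in the table, AKR1C1, AKR1C2 and AKR1C3 stood at 74, 72 and 14 of 414 with all libraries and at 11, 5 and 8 without parental replicate 1. The median log2 fold change of these 3 genes was -3.33, beside -0.35 for all genes of the table. Without parental replicate 1 these medians were -2.73 and 1.17. In that fit 404 of the 414 table genes had an unadjusted p under 0.05 (edgeR), against 310 with all 6 libraries. If the study's choice of genes left out parental replicate 1, the calls and ranks without it repeat that choice. Whether it did was not tested, so they are no independent support.

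Non-overlap alone was common in the table. The 4 AKR1C genes had every LATS1/2-KO library below every parental library, as did 44.2% of the table, and HSD17B2 had the opposite order, as did 35.7%. A two-sided exact permutation test of the scaled counts gave p = 0.1 for each of the 5 genes, the smallest that 3 against 3 libraries allow.

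**Figure D2:**
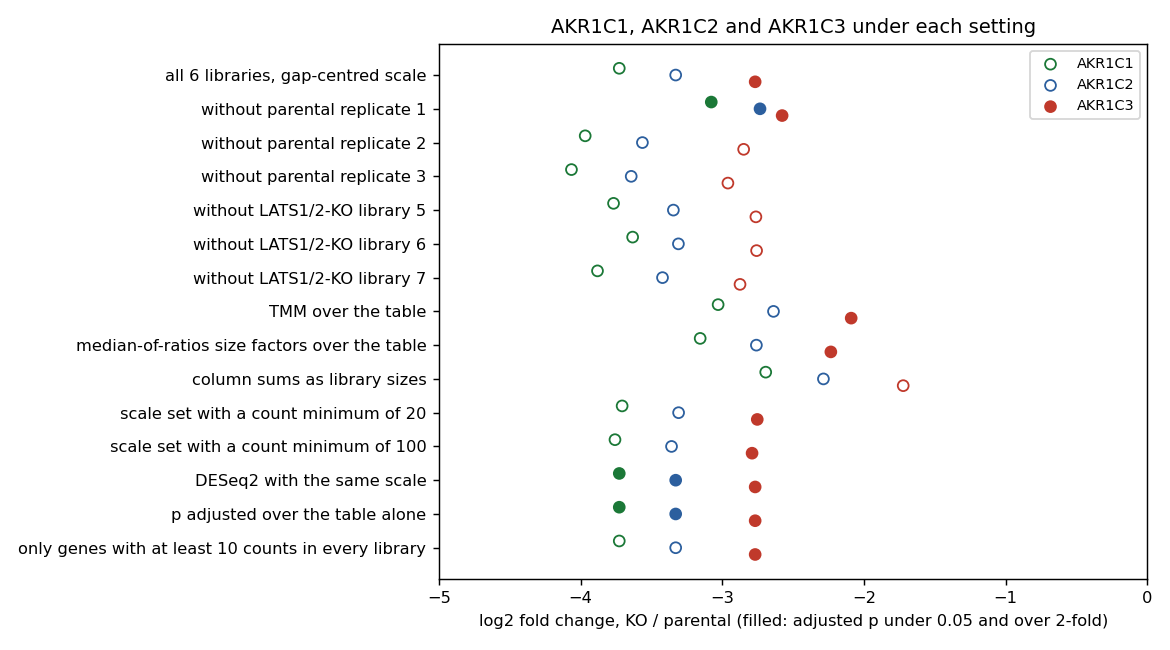
Log2 fold change of AKR1C1, AKR1C2 and AKR1C3 (x axis, LATS1/2-KO against parental) under each processing setting (y axis); filled points had an adjusted p under 0.05 and over 2-fold change. All 3 genes are below 0 in every setting, between -4.07 and -1.72, and AKR1C1 and AKR1C2 are filled only without parental replicate 1, with DESeq2, or with p adjusted over the table alone.

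AKR1C1 to AKR1C4 together took 7.50%, 3.82% and 2.99% of the table's counts in parental replicates 1, 2 and 3. In LATS1/2-KO libraries 5, 6 and 7 they took 1.02%, 1.06% and 1.11%. Because their coding lengths are equal, the order of counts is also the order per coding base. That order was AKR1C2, AKR1C3, AKR1C1 and then AKR1C4 in all 6 libraries.

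Ratios within a library do not depend on the scale between libraries. AKR1C1 per AKR1C2 was 0.345, 0.331 and 0.315 in parental replicates 1, 2 and 3 and 0.263, 0.223 and 0.273 in LATS1/2-KO libraries 5, 6 and 7. These groups did not overlap, with a log2 difference of -0.39 (SE 0.097), or -0.36 (SE 0.096) without parental replicate 1, a difference larger than the spread between libraries, within the limit of read sharing between the pair. AKR1C3 per AKR1C2 was 0.386, 0.697 and 0.678 in parental and 0.743, 0.777 and 0.779 in LATS1/2-KO libraries. Parental replicate 1 was the outlying library of this ratio, and the log2 difference was 0.43 (SE 0.28) with it and 0.16 (SE 0.030) without it. AKR1C1 per AKR1C3 differed by -0.82 (SE 0.32) on the log2 scale, and by -0.51 without parental replicate 1. Each of the 3 ratios had an exact permutation p = 0.1 (0.1 after Benjamini-Hochberg adjustment over the 3), the smallest possible, so none can pass the threshold.

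**Figure D3:**
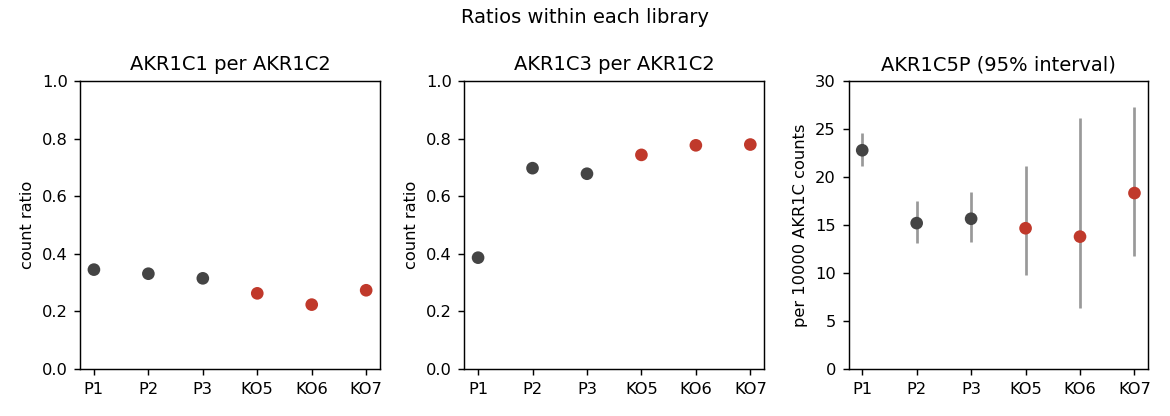
Count ratios AKR1C1 per AKR1C2 and AKR1C3 per AKR1C2, and AKR1C5P counts per 10000 counts of AKR1C1 to AKR1C3 and AKR1C5P (y axes) in each library, with exact 95% binomial intervals in the last panel that cover counting error only. AKR1C3 per AKR1C2 is 0.386 in parental replicate 1 and 0.678 to 0.779 in the other libraries.

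AKR1C4, the liver-type enzyme, had 47, 25 and 10 counts in parental replicates 1, 2 and 3 and 0 in each LATS1/2-KO library. Against a floor of 3 counts over the LATS1/2-KO group it was at least 19.6-fold lower, or at least 13.9-fold without parental replicate 1, and it was not called (edgeR Benjamini-Hochberg adjusted p = 0.475 and 0.299). The bound fell to 9.91-fold without LATS1/2-KO library 5 and to 9.68-fold with column sums. Such bounds, here and below, take the summed counts of the other group as they are. They leave out the counting error of that group and the spread between its libraries. Beside its paralogues the AKR1C4 counts were very small. The parental libraries held 1.54, 2.01 and 1.11 AKR1C4 counts per 10000 counts of AKR1C1 to AKR1C4. Summed over the parental libraries this was 1.58 per 10000 (exact 95% interval 1.26 to 1.96), and 0 of 38666 counts in the LATS1/2-KO libraries set a limit of 0.776 per 10000 when 3 counts are taken as the floor, and of 0.954 as the upper end of a two-sided exact 95% interval. In single libraries the intervals of parental and LATS1/2-KO cells overlapped, and the sums pool libraries of a gene listed for its parental counts, so no change of AKR1C4 beyond that of its paralogues is read from them. Whether reads of the abundant paralogues gave the AKR1C4 counts was not tested. All such intervals cover counting error only.

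HSD17B2, the enzyme that oxidises estradiol to estrone, had 0 counts in each parental library and 14, 23 and 15 in LATS1/2-KO libraries 5, 6 and 7. On the common scale the LATS1/2-KO values were 10.5, 46.3 and 18.0, highest in library 6, which has the smallest table sum. HSD17B2 was at least 24.1-fold higher in LATS1/2-KO cells against a floor of 3 counts over the parental group, or at least 14.6-fold without parental replicate 1. The edgeR adjusted p (Benjamini-Hochberg) was 0.515, and 0.257 without parental replicate 1. Its direction was thus opposite to that of the AKR1C genes, at a level near the lower end of the table.

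The pseudogene AKR1C5P followed the coding genes. It had 696, 189 and 141 counts in parental replicates 1, 2 and 3 and 28, 9 and 24 in LATS1/2-KO libraries 5, 6 and 7. Its log2 fold change was -3.49 (SE 0.62), and -2.68 (SE 0.37) without parental replicate 1, with edgeR Benjamini-Hochberg adjusted p-values of 0.257 and 0.0589. Per 10000 counts of AKR1C1 to AKR1C3 and AKR1C5P it had 22.8, 15.2 and 15.6 in parental and 14.7, 13.8 and 18.3 in LATS1/2-KO libraries. Apart from parental replicate 1 these shares overlapped, and whether its counts are reads of the coding genes was not tested.

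By Euclidean distance of centred log2(scaled count + 1) over the 6 libraries, AKR1C5P was also the nearest of 281 genes to AKR1C2 (distance 0.425), ahead of AKR1C1 (0.530) and AKR1C3 (0.864). Next among genes outside the family were NRP2, a semaphorin and VEGF coreceptor (1.12), CYB5R2, a cytochrome b5 reductase (1.23), SPINK13, a serine protease inhibitor (1.26), and CD82, a tetraspanin (1.27). NRP2 had 282, 94 and 67 counts in parental replicates 1, 2 and 3 and 18, 10 and 19 in LATS1/2-KO libraries 5, 6 and 7. Like AKR1C2, NRP2 and CD82 were highest in parental replicate 1. In scaled counts CYB5R2 (80.6 against 76.2) and SPINK13 (1751 against 1483) were higher in parental replicate 2 than in replicate 1. These genes were chosen for their closeness to AKR1C2 over the same libraries, so a shared peak is partly built in.

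The pattern of HSD17B2 (0 counts in every parental library and at least 5 in each LATS1/2-KO library) was shared by 18 table genes, itself included. The largest summed counts were those of AL022238.4, PSG2 (a pregnancy-specific glycoprotein), VSTM1, AL139405.1 and ANKRD30B. The pattern of AKR1C4 (at least 10 counts in each parental library and 0 in the LATS1/2-KO libraries) was shared by 16. There the largest summed counts were those of AC005324.3, PHYHD1, the metallothionein MT1A, the phospholipase PLCD1 and RAPH1. The places of PHYHD1 (994, 19 and 35 counts in parental replicates 1, 2 and 3) and PLCD1 (197, 29 and 18) rest on parental replicate 1.

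Because the AKR1C genes are neighbours, the other table genes of the chromosome arm 10p were set beside them. NET1, an exchange factor for the small GTPase RhoA, starts 0.449 Mb from the start of AKR1C1. It had 544, 559 and 375 counts in parental replicates 1, 2 and 3 and 217, 92 and 138 in LATS1/2-KO libraries 5, 6 and 7. Its log2 fold change was -1.22 (SE 0.19), 2.33-fold lower, and -1.27 (SE 0.19) without parental replicate 1, and edgeR called it in neither (Benjamini-Hochberg adjusted p = 0.156 and 0.0705). With other scalings over the table NET1 came to -0.56 (TMM), -0.71 (median-of-ratios) and -0.17 (column sums), so the size of its difference rests on the scale. Farther out, at 5.84, 9.41 and 23.1 Mb, CELF2, AL139405.1 and MPP7 were all higher in LATS1/2-KO cells; edgeR called none of them with all 6 libraries, and DESeq2, which called 22.5% of the table higher and 30.7% lower, called all 3 higher and NET1 lower. CELF2, an RNA-binding protein gene, and AL139405.1 had 0 parental counts and were at least 33.9-fold and at least 79.3-fold higher against the floor of 3 counts. Without parental replicate 1 these bounds were 20.5-fold and 47.9-fold. The scaffold gene MPP7 had a log2 fold change of 3.00 (SE 0.64), and of 2.90 (SE 0.70) without that replicate. Of the 4 table genes of 10p outside the AKR1C group, 1 was thus lower and 3 were higher. No table gene lay within 5 Mb of HSD17B2. Copy number at either locus was not tested.

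**Figure D4:**
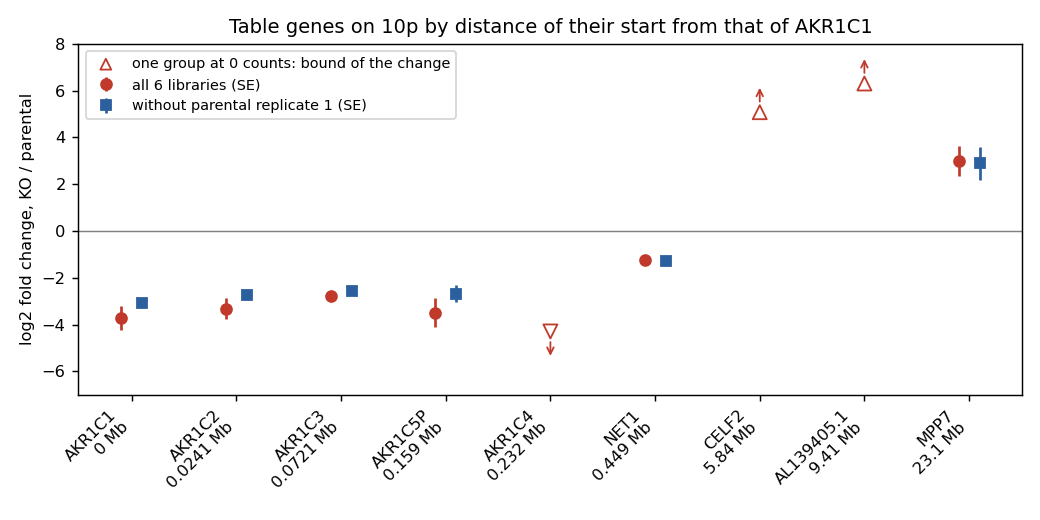
Log2 fold change (y axis, LATS1/2-KO against parental, with SE) of table genes on 10p, ordered by the distance of their start from that of AKR1C1 (x axis labels, in Mb, not to scale); circles use all 6 libraries and squares leave out parental replicate 1, and triangles with arrows mark lower bounds of the change for genes at 0 counts in 1 group. The AKR1C genes lie at or below -2.58, NET1 near -1.22, and the 3 genes beyond 5 Mb lie above 0.

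The promoters of the AKR1C genes are shown because these genes were lower together. They are RefSeq sequences on GRCh38.p14, 250 bases before to 50 bases after the annotated start, in gene orientation. Capitals mark ATTGG, the CCAAT box read on the opposite strand. AKR1C3 has a pair of annotated starts, of which the second is printed.
AKR1C1, chr10:4963165-4963464, plus strand: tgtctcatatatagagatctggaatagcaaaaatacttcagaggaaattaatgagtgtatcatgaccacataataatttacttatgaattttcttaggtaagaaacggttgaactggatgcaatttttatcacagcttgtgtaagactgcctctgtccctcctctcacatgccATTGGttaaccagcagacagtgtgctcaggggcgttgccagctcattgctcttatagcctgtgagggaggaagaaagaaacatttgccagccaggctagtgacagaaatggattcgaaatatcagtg
AKR1C2, chr10:5003808-5004107, minus strand: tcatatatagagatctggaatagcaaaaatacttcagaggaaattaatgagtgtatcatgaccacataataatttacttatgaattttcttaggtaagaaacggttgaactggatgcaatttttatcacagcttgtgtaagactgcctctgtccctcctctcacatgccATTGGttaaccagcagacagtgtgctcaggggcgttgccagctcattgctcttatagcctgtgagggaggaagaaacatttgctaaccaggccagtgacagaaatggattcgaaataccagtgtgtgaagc
AKR1C3, chr10:5094164-5094463, plus strand: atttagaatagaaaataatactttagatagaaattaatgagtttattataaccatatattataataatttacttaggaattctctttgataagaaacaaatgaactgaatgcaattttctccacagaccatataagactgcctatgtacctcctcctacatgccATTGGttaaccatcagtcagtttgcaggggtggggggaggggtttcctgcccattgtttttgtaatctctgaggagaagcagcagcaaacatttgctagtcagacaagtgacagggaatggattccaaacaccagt
AKR1C4, chr10:5196587-5196886, plus strand: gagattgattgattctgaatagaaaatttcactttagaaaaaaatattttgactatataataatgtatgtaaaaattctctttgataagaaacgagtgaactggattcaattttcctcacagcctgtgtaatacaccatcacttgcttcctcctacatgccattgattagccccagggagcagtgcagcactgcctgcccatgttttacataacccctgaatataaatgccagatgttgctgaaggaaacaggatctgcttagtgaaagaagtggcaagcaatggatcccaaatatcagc

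The promoters of AKR1C1 and AKR1C2 aligned with 97.3% identity and shared a run of 245 bases. AKR1C1 and the printed AKR1C3 promoter were 75.3% identical, and AKR1C1 and AKR1C4 62.7%. A CCAAT box (CCAAT on either strand) began at position -77 of AKR1C1, -81 of AKR1C2, and -73 and -86 of the AKR1C3 promoters, and none was in the AKR1C4 window. The same letters occurred in 34.6% of 35116 promoters of this length. GGAATG, the core bound by TEAD factors, was found once, at position 29 of the printed AKR1C3 promoter, and occurs in 14.0% of all promoters. TGACNNNGC, the core of the antioxidant response element, and TGANTCA, an AP-1 core, matched none of these windows and are in 13.3% and 7.71% of promoters. Both strands were searched for each, and a match is a description of the letters only.

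Other steroid genes were scarce in the table. None of 50 further steroid-metabolising enzymes and none of 24 steroid receptors and hormone-responsive endometrial genes was listed, so these were not analysed here. Of 47 genes of aldehyde, carbonyl and xenobiotic metabolism 5 were listed. With all 6 libraries 4 were lower and 1 higher, and edgeR called 0, beside 3.38% of the table lower and 4.35% higher. Without parental replicate 1, 3 were lower and 2 higher, and edgeR called 1 lower, where 13.0% of the table was called lower. DESeq2 called 2 of the 5, ALDH3A1 and BLVRB, both lower, beside 30.7% of the table lower and 22.5% higher. ALDH3A1, BLVRB and EPHX1 had an unadjusted p under 0.05, as did 310 of the 414 table genes, so this share is no higher than that of the table. These 3 were also the listed members of 43 NRF2 targets.

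ALDH3A1, an aldehyde dehydrogenase, had 1191, 1218 and 1111 counts in parental replicates 1, 2 and 3 and 445, 162 and 305 in LATS1/2-KO libraries 5, 6 and 7. Unlike the AKR1C genes, it was not high in parental replicate 1, and its log2 fold change was -1.50 (SE 0.17) with all libraries and -1.62 (SE 0.14) without that replicate. The adjusted p-values were 0.0826 and 0.0127 (edgeR, Benjamini-Hochberg), and the log2 fold change was -0.84 with TMM and -0.45 with column sums. BLVRB, biliverdin reductase B, had 24839, 4678 and 4267 parental counts and 2712, 752 and 1256 in LATS1/2-KO cells. Parental replicate 1 was 4.20-fold above the others, and the log2 fold change moved from -2.30 (SE 0.66) to -1.26 (SE 0.17) without it. EPHX1, the microsomal epoxide hydrolase, had 261, 49 and 34 parental counts and 9, 0 and 0 in LATS1/2-KO cells.

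Of the other listed enzymes, MAOA and SC5D changed direction without parental replicate 1. ALDH5A1 was higher in LATS1/2-KO cells with and without it, and only the size depended on it. Its log2 fold changes were 3.42 and 7.68, the latter a fitted value against 0 counts. MAOA, which oxidises monoamines, was counted 2272 times in the first parental library and 0 times in the other parental libraries, beside 33, 8 and 70 counts in LATS1/2-KO cells. ALDH5A1, succinate semialdehyde dehydrogenase, had 10, 0 and 0 parental counts and 13, 14 and 34 in LATS1/2-KO cells. SC5D, a late enzyme of cholesterol synthesis and the only 1 of 24 sterol synthesis genes in the table, had 993, 79 and 93 parental counts and 198, 141 and 229 in LATS1/2-KO cells. Its direction turned with that library, and with the scaling.

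Of 25 genes of prostaglandin metabolism and reception, which is the other known substrate field of AKR1C3, 2 were listed, of which edgeR called 0 (3.38% of the table lower and 4.35% higher) and DESeq2 called HPGD lower (30.7% of the table). HPGD, the dehydrogenase that inactivates prostaglandins, had 40, 28 and 26 counts in parental replicates 1, 2 and 3 and 0 in each LATS1/2-KO library. It was at least 22.5-fold lower against the floor of 3 counts, and at least 21.4-fold without parental replicate 1, so that library did not set its level. PTGFR, the receptor of prostaglandin F, had 24, 0 and 0 parental counts and 33, 18 and 12 in LATS1/2-KO cells.

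**Figure D5:**
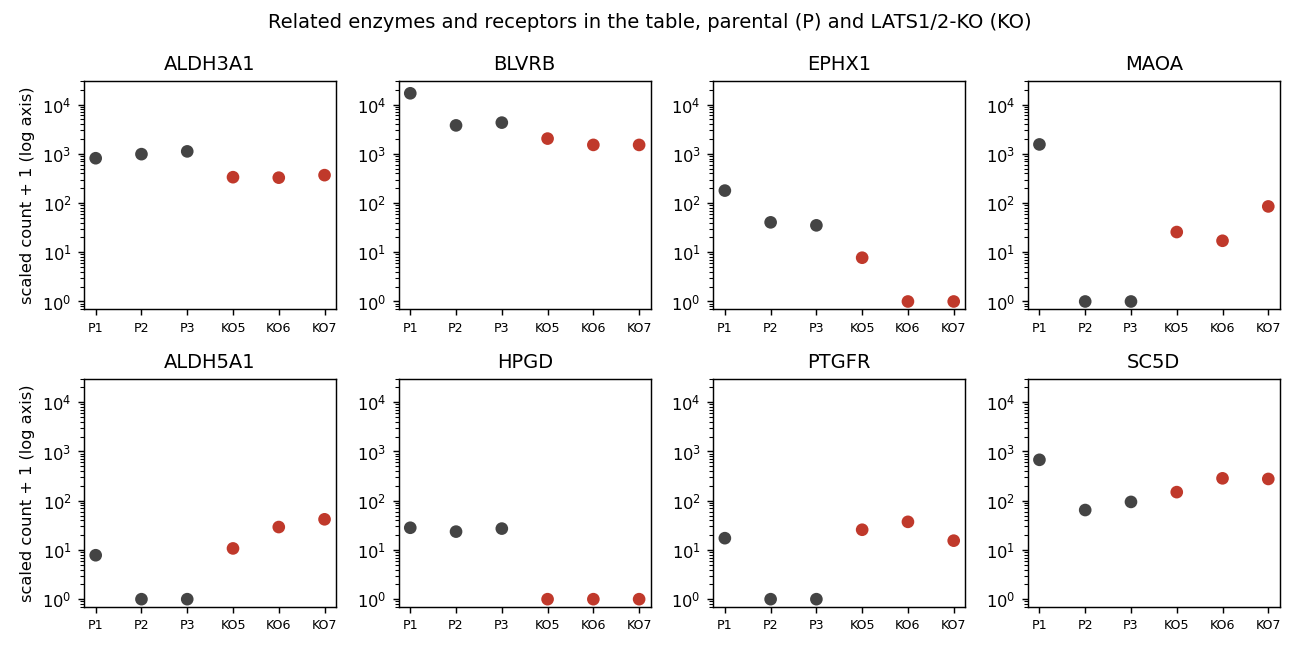
Scaled count plus 1 (y axis, logarithmic) of 8 related genes in each parental (P) and LATS1/2-KO (KO) library. ALDH3A1 and HPGD are level among the parental libraries, whereas MAOA, BLVRB, EPHX1 and SC5D are highest in parental replicate 1.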

How the data were processed

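RNA-seq libraries of oligo-dT-primed RNA from KLE cells were paired-end sequenced (150 bases). The submitters' processing notes name cutadapt, HISAT2, StringTie, DESeq2 and hg19, without versions or roles. The authors deposited 1 table with whole-number counts per gene, not normalized, for 414 genes that passed their thresholds. Its columns of fold changes, test statistics and p-values hold the authors' own comparison and were not used, nor were 6 per-library columns of another unit. LATS1/2-KO columns are numbered 5, 6 and 7 and were matched to the group only.

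Libraries of a group were scaled by median ratios of the genes that reached 50 counts in all of them. Between groups, the centre of the widest gap in the log2 ratios to parental replicates 2 and 3 (at least 20 genes on each side) was set to 0. It was chosen because sums or TMM over a list of changed genes can be pulled by them, although the gap comes from the same list. Genes were tested with edgeR 4.0.16 (R 4.3.3; glmQLFit, glmQLFTest, no covariates) with Benjamini-Hochberg adjustment for 20000 genes, a round number for the genes tested by the authors. The alternatives were leaving out each library, TMM, median-of-ratios factors, column sums, count minimums of 20 and 100 for the scale, DESeq2 1.42.0, adjustment over the table alone, and keeping genes that had 10 counts or more throughout. The procedure was tested on simulated data. The simulated libraries of a group differed by scale and random spread only, so that test does not cover an outlying library such as parental replicate 1.

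The genes, lists and tests were chosen with earlier results of these data known. Named genes were the 5 enzymes, listed genes of related pathways, table genes of 10p or within 5 Mb, the 5 genes nearest to AKR1C2, and up to 5 genes of each on or off pattern. AKR1C5P was identified by its gene ID. Of 414 identifiers, 410 were found in GENCODE 29 (GRCh38), from which positions and coding sequences were taken. Promoters came from RefSeq tables (GRCh38.p14), where the 4 AKR1C genes matched, and were aligned with Biopython 1.88. Figures were drawn with matplotlib.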

Additional observations from a re-analysis of the deposited data

How the results depend on the processing

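AKR1C1, AKR1C2 and AKR1C3 kept their direction under every alternative run, and AKR1C4 and HSD17B2 under all but the filter at 10 counts in every library, which removes both. Leaving out 1 library at a time gave log2 fold changes of -4.07 to -3.08 for AKR1C1, -3.64 to -2.73 for AKR1C2 and -2.96 to -2.58 for AKR1C3. AKR1C3 lost its call when any library other than parental replicate 1 was left out (lowest edgeR Benjamini-Hochberg adjusted p = 0.145), and with column sums (-1.72). The fit without parental replicate 1 also lacked 1 library, and it called 46 table genes higher and 54 lower. The reason for the lost calls was not tested. AKR1C1 (-3.73) and AKR1C2 (-3.33) gained calls with DESeq2 or adjustment over the table alone, as did HSD17B2. AKR1C4 gained its call with adjustment over the table alone only. Table genes called higher numbered 18, against 0 to 46 when 1 library was left out, 34 with TMM, 42 with column sums, 93 with DESeq2 and 119 adjusted over the table alone. Those called lower numbered 14, against 0 to 54, and 4, 2, 127 and 172 in the same order, with 1 for median-of-ratios factors. These scalings shifted log2 fold changes upward, by a median over genes of 0.67 (TMM), 0.52 (median-of-ratios) and 1.05 (column sums). All of these scales, the main scale included, are built over a list of changed genes, so which is right could not be tested. The bound for AKR1C4 ranged from 9.91-fold (without LATS1/2-KO library 5) to 24.8-fold when 1 library was left out and was 9.68-fold with column sums. The summed parental libraries held 2.90 AKR1C4 counts per 10000 counts of AKR1C2 and AKR1C4 alone, against 1.58 per 10000 counts of AKR1C1 to AKR1C4. The bound for HSD17B2 ranged from 14.6-fold (without parental replicate 1) to 34.9-fold (without LATS1/2-KO library 5), and was 38.9-fold with TMM, 34.7-fold with median-of-ratios factors and 48.9-fold with column sums. Without that replicate MAOA turned to 8.36, a fitted value against 0 counts, and SC5D from -0.24 to 1.58 (leaving out 1 library, MAOA ranged from -4.67 to 8.36 and SC5D from -0.73 to 1.58); SC5D was also positive with TMM (0.46), median-of-ratios factors (0.41) and column sums (0.82), and the cause was not tested. No paired analysis was possible because the LATS1/2-KO columns carry numbers that match no replicate label. Low counts limit AKR1C4 and HSD17B2.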
